A study of Rattus norvegicus with 12 samples.

Results

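Corpora lutea (CL) of rats given an aromatase inhibitor together with estradiol (E2) were compared with CL of rats given vehicle, all collected on day 16 of pregnancy. The comparison rests on 3 arrays per group, 6 of the 12 arrays of the series, taken by their sample labels. All rats were Wistar by their labels, and Harlan Wistar by the study's methods. VEH rats received dilute ethanol by mouth each day for 4 days from day 12. AI+E2 rats received over the same 4 days anastrozole (AI), an inhibitor of aromatase, at 1 mg/kg body weight per day by mouth, and E2 at 10 µg per day under the skin. CL were taken 96 h after the start, and each array held RNA of 1 animal. Whether VEH rats were also injected is not stated in the labels or the methods. The 6 remaining arrays came from rats given the same AI dose without E2 (AI) and from untreated rats on day 12. They entered the estimate of the spread, and their values are given beside those of the comparison where stated.

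The CL is an endocrine gland formed from the ruptured follicle, and its progesterone maintains pregnancy. In the pregnant rat the luteal cells also express aromatase, the enzyme that converts androgens to E2, and luteal E2 acts within the gland itself, where it is known to favour growth of the luteal cells and their blood supply. VEH rats thus had E2 of their own CL, while in AI+E2 rats the enzyme was inhibited and E2 came from outside. The inhibitor and the injected hormone were given together, so their parts in any difference from VEH cannot be told apart in these 6 arrays.

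Values are log2 signals as deposited, and each gene was read from 1 probe set. Differences are AI+E2 minus VEH on the log2 scale with their standard error (SE). Their p values come from limma, were adjusted over 14509 genes by the method of Benjamini and Hochberg, and were called under 0.05. A gene is said to have risen or fallen only where it passed. Precision is limited by the number of arrays, since with 3 a group the exact permutation p of a single gene cannot be smaller than 0.1. The tissue label was checked against markers. The mean level of 9 luteal cell markers was 11.73 to 11.87 on all 6 arrays, that of 10 fat markers 6.32 to 6.35 and that of 8 markers of oviduct and surface epithelium 6.27 to 6.38, although levels of different probe sets are not on a common scale. Outside the comparison, day 12 replicate 2 stood apart, with a mean level of 8.65 over 28 interferon-stimulated genes against 7.23 and 7.29 in the other day 12 arrays.

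Over all genes the CL of AI+E2 treated rats were separate from those of VEH treated rats. The root mean square difference between a VEH and an AI+E2 array over the 14509 genes was 0.237 to 0.268 on the log2 scale, against 0.141 to 0.173 between VEH arrays and 0.101 to 0.149 between AI+E2 arrays. Each of the 9 pairs across the groups was thus farther apart than any pair within a group. By the same measure AI+E2 arrays lay 0.237 to 0.285 from AI arrays (median 0.247, beside 0.248 from VEH arrays) and 0.229 to 0.268 from day 12 arrays. VEH arrays lay 0.276 to 0.319 from AI arrays and 0.224 to 0.272 from day 12 arrays. The median log2 difference of all genes was -0.0064, and 12713 genes (87.6%) differed by less than 1.2-fold.

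Of the 14509 genes, 1888 passed the test (13.0%), of which 886 were higher (6.11%) and 1002 lower (6.91%) in AI+E2. At a fold change of at least 1.5 the number was 385 (188 higher and 197 lower), and at 2-fold it was 102 (47 higher and 55 lower). Changes over 4-fold were found in 6 genes, which were Akr1c3, Csn1s1, Zfp347 and Idi1 among the rises and Ass1 and Tfrc among the falls. Most called genes thus differed little, 1503 of them by less than 1.5-fold. Without AI+E2 replicate 1 the number of called genes dropped to 1253 and that of the higher ones to 563, whereas at 2-fold leaving out any 1 of the 6 arrays moved the count by less than 1.5 times. In 1980 genes all 3 AI+E2 arrays lay above all 3 VEH arrays, and in 2279 all lay below.

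**Figure D1:**
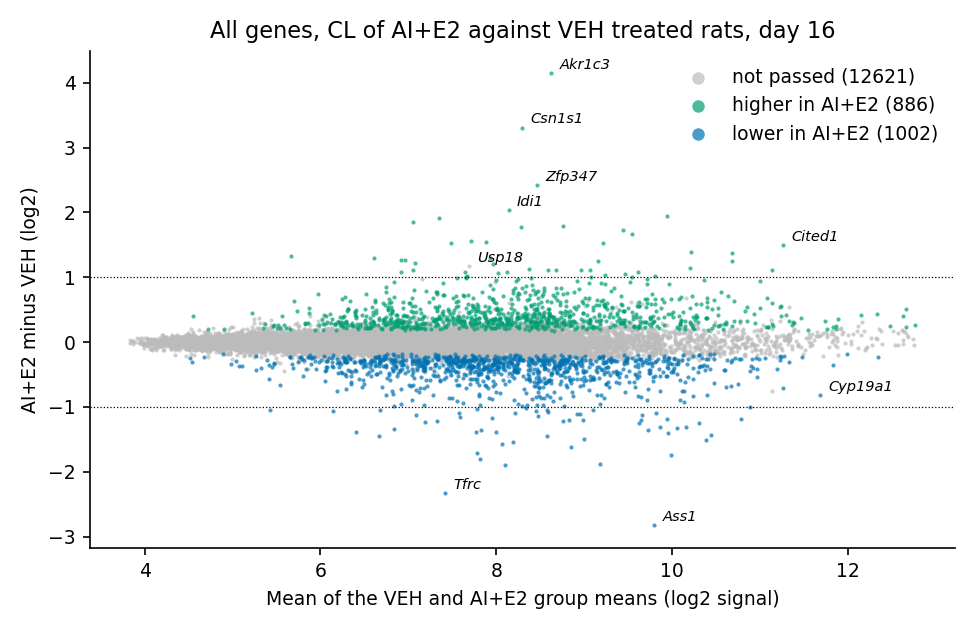
Difference between AI+E2 and VEH (vertical axis, log2) against the mean of both group means (horizontal axis, log2 signal) for 14509 genes. Points are genes, coloured by the call, and dotted lines mark 2-fold. Most points lie near 0, and Akr1c3, Csn1s1, Ass1 and Tfrc stand far from the rest.

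The largest rise was that of Akr1c3, also called Akr1c18, the 20α-hydroxysteroid dehydrogenase that converts progesterone into an inactive product. Its log2 signal was 6.23, 6.63 and 6.79 in VEH and 10.70, 10.56 and 10.83 in AI+E2. The 3 AI+E2 arrays were far above every VEH array, and above the day 12 arrays, which read 8.98, 9.95 and 8.96. The rise amounted to 17.7-fold (log2 4.14, SE 0.244, adjusted p = 2.82e-08). In AI alone it rose by 1.63 (adjusted p = 2.03e-04), and the difference between AI+E2 and AI was itself called, at 2.52 (adjusted p = 4.28e-06). AI against VEH shares the VEH arrays with AI+E2 against VEH, here and wherever both are given.

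The next was Csn1s1, which encodes alpha-S1-casein, a milk protein and a known target of prolactin signalling in the mammary gland. VEH arrays read 6.18, 6.80 and 6.92, and AI+E2 arrays 9.91, 9.81 and 10.10. There was no overlap, and the day 12 arrays (5.30 to 5.74) lay below both. The gene was 9.90-fold higher in AI+E2 (log2 3.31, SE 0.163, adjusted p = 4.47e-09), whereas in AI it fell by 0.80 (adjusted p = 0.00266). Of the 13 measured milk protein and secretory genes it was the single one that passed (7.69%, against 13.0% of all genes), and 2 passed without VEH replicate 3. The caseins Csn2 and Csn3 differed by 0.14 and 0.17 (adjusted p = 0.351 and 0.256), and Svs5, a seminal vesicle protein gene, by 0.20 (adjusted p = 0.456) against 3.19 in AI.

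Promoters of both genes are shown because they lead the list of rises. Sequences are from RefSeq (build GRCr8), cover the 150 bases before the gene's start and run 5′ to 3′ on the gene's strand. Capitals mark the letters of a GAS site, the element bound by STAT factors (TTC, 3 bases, GAA), or of a CCAAT box on either strand. The first is Akr1c3 (chr17:71020734-71020883, plus strand), with 1 CCAAT box, and the next Csn1s1 (chr14:20638850-20638999, minus strand), with a CCAAT box read as ATTGG and a GAS site at -100 to -92.
Akr1c3: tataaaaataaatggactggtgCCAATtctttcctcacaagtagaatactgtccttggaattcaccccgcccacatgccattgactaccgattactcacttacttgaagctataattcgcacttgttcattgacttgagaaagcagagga
Csn1s1: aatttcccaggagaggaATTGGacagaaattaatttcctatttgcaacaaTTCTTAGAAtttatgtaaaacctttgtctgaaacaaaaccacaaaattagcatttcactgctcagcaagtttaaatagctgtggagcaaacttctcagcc
Over the 250 bases before the start, a GAS site was found in 7.67% of 33469 rat promoters and in 1 of 22 promoters among the 25 largest rises, that of Csn1s1. A full estrogen response element (GGTCA, 3 bases, TGACC) was found in 0.0239% of all promoters, and in 0 of the 22 promoters of rises and 0 of the 19 of falls that could be matched. A match is a description of the letters in this window.

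Zfp347, a zinc finger gene, rose 5.37-fold (log2 2.42, SE 0.186, adjusted p = 5.10e-07). Chrna5, a subunit of the nicotinic acetylcholine receptor, rose by 1.91 and Aadat, an aminotransferase of the kynurenine and lysine pathways, by 1.86 (adjusted p = 1.52e-07 and 7.00e-07). Cpa1, a carboxypeptidase, rose by 1.78, and Gpd1, the cytosolic glycerol phosphate dehydrogenase that links glycolysis to lipid synthesis, by 1.73 (adjusted p = 6.40e-06 and 1.46e-09). All of these had 3 AI+E2 arrays above 3 VEH arrays, as the rule for naming them required.

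Cited1, a transcriptional cofactor of estrogen receptors, read 10.64, 10.38 and 10.52 in VEH and 12.05, 11.90 and 12.08 in AI+E2. The groups lay far apart, and the rise was 2.82-fold (SE 0.0762 on the log2 scale, adjusted p = 6.49e-09). The junction protein gene Jam2 rose by 1.37, Calb2, a calcium binding protein gene, by 1.55, and Tmem178a by 1.53 (adjusted p = 3.38e-09, 1.66e-05 and 1.39e-07). Lrrc1 and Spata18 rose by 1.56 and 1.26 (adjusted p = 1.04e-06 and 1.32e-07), while in AI they differed from VEH by -0.01 and 0.04 (adjusted p = 0.962 and 0.804). Orm1, an acute phase glycoprotein gene, rose by 1.52 (adjusted p = 3.32e-05) and differed by -0.42 in AI (adjusted p = 0.131). For these 3 genes the difference between AI+E2 and AI was called, at 1.58, 1.22 and 1.95 (adjusted p = 8.06e-07, 1.56e-07 and 2.51e-06).

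**Figure D2:**
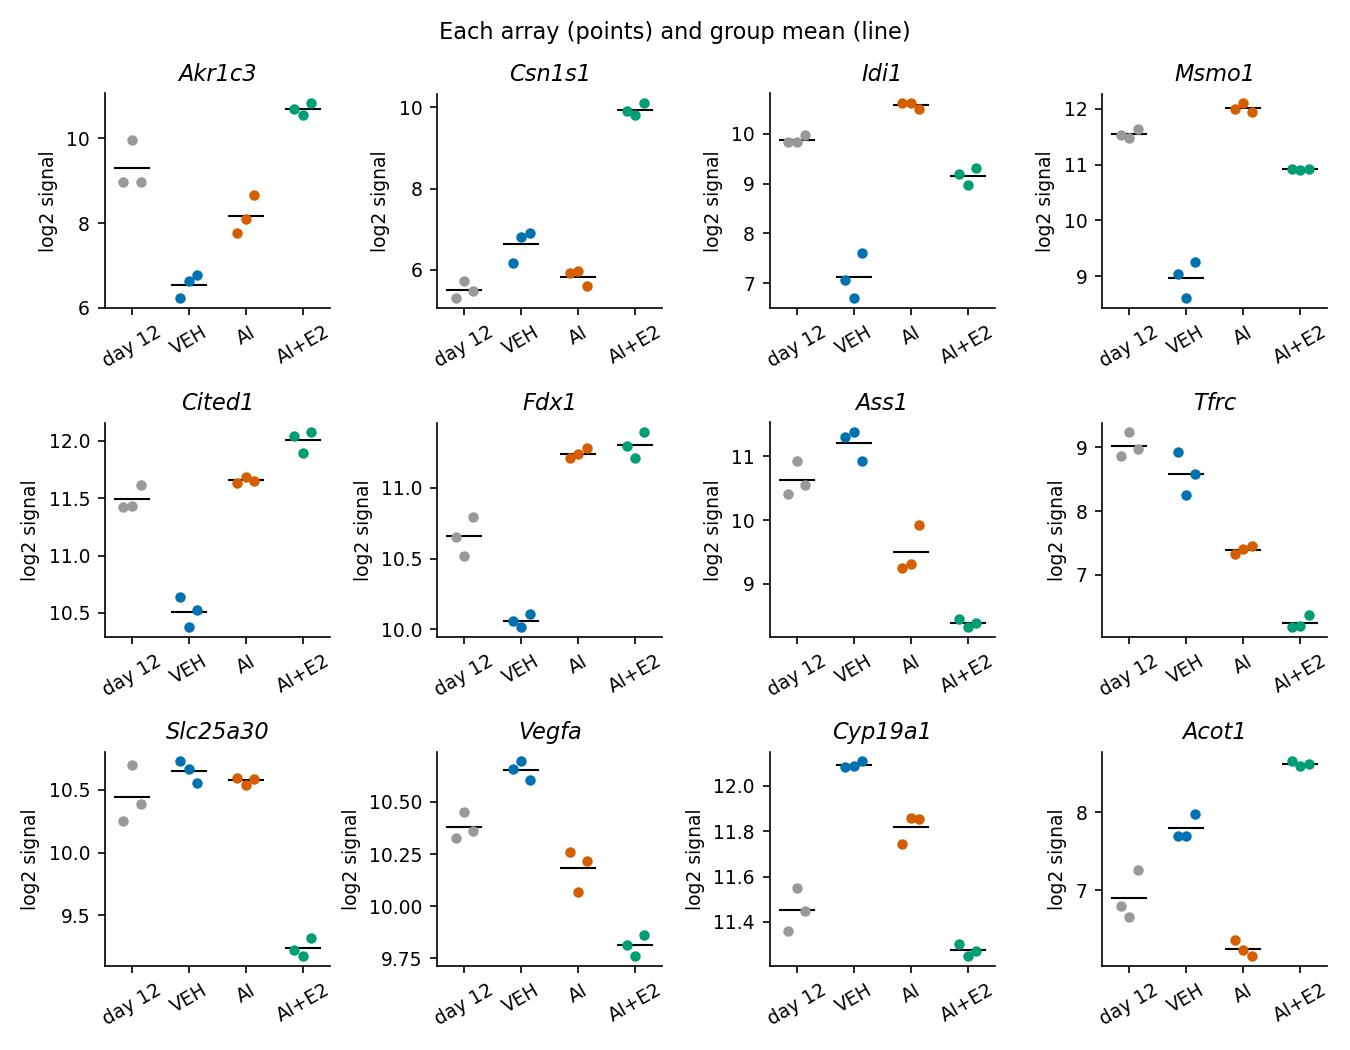
Log2 signal of 12 genes on each of the 12 arrays (points) with group means (lines) in day 12, VEH, AI and AI+E2. For each gene shown the 3 AI+E2 arrays lie wholly above or wholly below the 3 VEH arrays, as with 10.56 to 10.83 against 6.23 to 6.79 for Akr1c3.

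Enzymes of the mevalonate and sterol pathway were higher in AI+E2 than in VEH. This pathway builds cholesterol, the precursor of progesterone, from acetate, and luteal cells draw on it beside cholesterol taken up from lipoproteins. Of 17 measured members 13 rose and 2 fell, with a median log2 difference of 0.87, against 13.0% called and a median of -0.0064 over all genes. Idi1, the isopentenyl diphosphate isomerase, read 7.06, 6.70 and 7.60 in VEH and 9.20, 8.97 and 9.31 in AI+E2 and rose 4.11-fold (log2 2.04, SE 0.157, adjusted p = 5.39e-07). Msmo1, the C4 methylsterol oxidase, read 9.04, 8.61 and 9.25 against 10.93, 10.89 and 10.92 and rose 3.86-fold (adjusted p = 2.94e-08). The AI+E2 arrays lay close together in both genes, and the VEH arrays were more widely spread.

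Cyp51, the lanosterol demethylase, rose by 1.67 and Fdps, the farnesyl diphosphate synthase, by 1.39 (adjusted p = 4.16e-09 for both). Sc5d, a desaturase of a late step, rose by 1.02 (adjusted p = 2.02e-07). The members that fell, named after their values were seen, were Fdft1, the squalene synthase, by 0.39 and Mvk, the mevalonate kinase, by 0.29 (adjusted p = 0.0149 and 0.00545). Leaving out 1 array left 1 of these falls in 4 of the 6 cases, which were those without VEH replicate 1 or 3 and without AI+E2 replicate 1 or 2. Hsd17b7 and Dhcr7, of which the latter was named after its values were seen, did not pass, at -0.04 and 0.19 (adjusted p = 0.751 and 0.143).

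The rise over VEH was smaller in AI+E2 than in AI. In AI 16 of the 17 members rose and 1 fell, with a median of 1.93. Over all 14509 genes 858 were called higher in AI than in VEH and 1602 lower, which applies to the AI counts of other lists too. The difference between AI+E2 and AI was itself called and negative for Idi1 (-1.41, adjusted p = 1.72e-05), Msmo1 (-1.09, adjusted p = 9.96e-06), Cyp51 (-1.54, adjusted p = 1.01e-08) and Fdps (-0.62, adjusted p = 1.41e-05). The mean level of the 17 members was 8.70 to 8.86 on the VEH arrays and 9.54 to 9.62 on the AI+E2 arrays, and on every AI+E2 array it lay below every AI array (10.55 to 10.68) and every day 12 array (10.11 to 10.23).

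Promoters of the 4 members of the list that rose most are shown in the same way, with CCAAT boxes in capitals. They are Idi1 (chr17:66547525-66547674, minus strand), Msmo1 (chr16:29746963-29747112, plus strand), Cyp51 (chr4:30991543-30991692, plus strand), in which no box was found, and Fdps (chr2:176804817-176804966, minus strand).
Idi1: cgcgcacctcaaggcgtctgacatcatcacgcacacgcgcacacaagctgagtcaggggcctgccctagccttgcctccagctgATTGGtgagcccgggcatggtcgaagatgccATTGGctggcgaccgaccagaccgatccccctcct
Msmo1: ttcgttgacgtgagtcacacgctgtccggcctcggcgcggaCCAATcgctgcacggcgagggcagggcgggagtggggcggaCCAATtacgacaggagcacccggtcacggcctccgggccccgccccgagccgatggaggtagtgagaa
Cyp51: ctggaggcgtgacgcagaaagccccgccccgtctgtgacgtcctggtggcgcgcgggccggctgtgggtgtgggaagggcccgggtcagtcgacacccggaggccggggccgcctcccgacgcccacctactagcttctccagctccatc
Fdps: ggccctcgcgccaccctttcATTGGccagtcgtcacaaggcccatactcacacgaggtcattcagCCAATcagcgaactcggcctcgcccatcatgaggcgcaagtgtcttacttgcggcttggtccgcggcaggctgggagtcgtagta
Over 250 bases a CCAAT box was found in 11 of the 14 list members with a promoter (78.6%), in 10 of 22 among the 25 largest rises, in 8 of 19 among the falls, and in 34.0% of all promoters. The CCAAT box was added to the search after values had been seen. The core of the sterol regulatory element (CACC followed by CCAC) was found in 1 of the 14, that of Ebp, and in 2.32% of all promoters.

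Genes around this pathway moved less evenly. Of 12 measured genes of sterol sensing and LDL uptake 4 rose and 2 fell (median 0.01). Insig1, which retains the sterol sensor in the endoplasmic reticulum, rose by 0.59, and Srebf2, the transcription factor of cholesterol synthesis, by 0.29 (adjusted p = 1.05e-04 and 0.00266). The lipoprotein receptor gene Vldlr fell by 0.69 (adjusted p = 5.81e-05). Of 25 genes of cholesterol ester, efflux and lipid droplets 3 rose and 4 fell (28.0% called, median -0.06). Soat1, which esterifies cholesterol for storage, rose by 0.60, and Plin2, the coat protein of lipid droplets, fell by 0.82 (adjusted p = 1.67e-05 and 1.23e-04).

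Of 17 genes of fatty acid synthesis 7 rose and none fell (median 0.13), against 6.11% of all genes called higher, and in AI 12 of the 17 were higher and 0 lower (median 0.45). Acss2, which makes acetyl-CoA from acetate, read 7.56, 7.37 and 7.24 in VEH and 9.16, 9.11 and 9.23 in AI+E2, a rise of 3.42-fold (adjusted p = 1.33e-08). Fads1, a desaturase, rose by 0.95 and Acly, the ATP citrate lyase, by 0.84 (adjusted p = 6.87e-07 and 1.33e-06). Of 22 genes of fatty acid oxidation and PPAR targets 8 rose and 2 fell (45.5% called, against 13.0% of all genes, median 0.16), whereas in AI 2 rose and 10 fell (median -0.20). The count of rises was 5 without AI+E2 replicate 1 or 3 or VEH replicate 3, and that of falls was 4 without VEH replicate 2. Acot1, an acyl-CoA thioesterase, read 7.70, 7.70 and 7.99 in VEH and 8.66, 8.60 and 8.62 in AI+E2, and its rise of 0.83 (adjusted p = 2.56e-04) stood against a fall of 1.55 in AI (adjusted p = 3.15e-07). Its neighbour in function Acot2 rose by 0.55 (adjusted p = 9.65e-05) and fell by 0.77 in AI (adjusted p = 1.98e-06).

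The largest fall was that of Ass1, the argininosuccinate synthase that makes the precursor of arginine. Its signal was 11.31, 11.38 and 10.92 in VEH and 8.45, 8.32 and 8.38 in AI+E2. The groups lay far apart, with a 7.09-fold difference (log2 -2.83, SE 0.166, adjusted p = 2.82e-08). In AI it fell by 1.71, and the difference between AI+E2 and AI was -1.12 (adjusted p = 2.79e-04).

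Tfrc, the transferrin receptor through which cells take up iron, read 8.92, 8.26 and 8.57 in VEH and 6.18, 6.20 and 6.38 in AI+E2. It was 5.03-fold lower (log2 -2.33, SE 0.130, adjusted p = 1.80e-08), and it fell by 1.19 in AI. Within the list of iron handling 3 of 23 members rose and 2 fell (21.7% called, against 13.0% of all genes). Hmox1, which breaks down haem, rose by 0.48, the copper ferroxidase gene Cp by 0.35 and the metal transporter gene Slc39a14 by 0.30 (adjusted p = 3.88e-05, 0.00524 and 0.0113). Besides Tfrc, Hamp, the iron hormone hepcidin, fell by 0.41 (adjusted p = 0.0305), a gene named after its values were seen, and 1 member in place of 2 was called lower without AI+E2 replicate 1 or 3 or VEH replicate 2.

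The next genes were also among the 25 largest falls. Fmnl1, a formin that organises actin, and Prkcd, protein kinase C delta, each fell by 1.89 (3.71-fold and 3.70-fold, adjusted p = 3.74e-09 for both). Kcnq1, a potassium channel, fell by 1.80, and Gna11, an alpha subunit of the Gq family of G proteins, by 1.49 (adjusted p = 3.38e-09 for both). Htr2a, a serotonin receptor, and Gpr183, an oxysterol receptor, each fell by 1.38 (adjusted p = 3.74e-09 and 2.06e-08). Tgm2, a transglutaminase, fell by 1.44 and Rab27a, a small GTPase of secretory granules, by 1.39 (adjusted p = 3.74e-09 and 5.07e-06).

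Enzymes of amino acid and polyamine metabolism were among the largest falls as well. Of 31 measured members of that list 6 fell and 2 rose (25.8% called, against 13.0% of all genes, median -0.02). Bcat1, which transaminates branched-chain amino acids, read 10.81, 10.90 and 10.86 against 9.17, 9.07 and 9.09 and fell by 1.74 (adjusted p = 3.38e-09). Odc1, the rate-limiting enzyme of polyamine synthesis, read 11.20, 11.12 and 11.09 against 9.65, 9.57 and 9.68, a 2.84-fold fall (adjusted p = 1.46e-09). Azin1, which protects that enzyme, fell by 0.63 (adjusted p = 1.22e-05). Of 20 amino acid transporters 3 rose and 1 fell, with Slc7a8 at 0.62 and Slc7a2, a carrier of arginine, at -0.60 (adjusted p = 2.35e-04 and 2.23e-04). Without VEH replicate 3 or day 12 replicate 2 the count of falls was 2.

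Slc25a30, a mitochondrial carrier, read 10.73, 10.67 and 10.56 in VEH and 9.23, 9.18 and 9.32 in AI+E2. On day 12 it read 10.25, 10.69 and 10.39. The fall was 1.41 (SE 0.0902, adjusted p = 7.21e-08), against -0.07 in AI (adjusted p = 0.649), and the difference between AI+E2 and AI was -1.33 (adjusted p = 1.13e-07).

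Of the genes that make and inactivate E2, Cyp19a1, which encodes aromatase, was lower. It read 12.08, 12.09 and 12.11 in VEH and 11.30, 11.25 and 11.27 in AI+E2. The groups were tightly closed, and the difference was -0.82 (SE 0.0602, adjusted p = 3.08e-07), a 1.76-fold fall. In AI it fell by 0.27 (adjusted p = 0.00452). Hsd17b4, which oxidises E2, rose by 0.19 (adjusted p = 0.0469), and the other 11 of 13 members did not pass (15.4% called, near the 13.0% of all genes). No member was called higher without any 1 of the 6 arrays other than AI+E2 replicate 2. Among them was Cyp1b1, which hydroxylates E2, at 0.04 (adjusted p = 0.910), although it rose by 2.26 in AI. Hsd17b1, which reduces estrone to E2, ranged from 7.30 to 9.36 within VEH and gave no call (-0.10, adjusted p = 0.934).

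Receptors of the sex steroids and their cofactors differed little, with 18.8% called against 13.0% of all genes. Of 16 measured members Ncoa2, a coactivator, rose by 0.31 (adjusted p = 0.00747), and Pgrmc1 and Pgrmc2, membrane proteins linked to progesterone, fell by 0.23 and 0.27 (adjusted p = 0.0175 and 0.0377). With any 1 of the 6 arrays left out at most 1 member was called lower. Esr1, the estrogen receptor alpha, read 9.22, 8.97 and 9.31 in VEH and 9.36, 9.27 and 9.54 in AI+E2, and the arrays overlapped (0.22, SE 0.102, adjusted p = 0.192). Esr2, the estrogen receptor beta, differed by -0.03 (SE 0.138, adjusted p = 0.946).

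Genes of progesterone synthesis were divided, with 37.5% called against 13.0% of all genes. Star, which carries cholesterol into the mitochondrion, and Cyp11a1, which cleaves its side chain, were at 12.58 to 12.80 on all 6 arrays and did not pass (0.08 and 0.05, SE 0.0528 and 0.0612, adjusted p = 0.449 and 0.746). Of 16 members Fdx1, the electron donor of that enzyme, rose 2.37-fold, from 10.06, 10.01 and 10.11 to 11.30, 11.21 and 11.39 (adjusted p = 2.25e-08). Cyp17a1, the enzyme that leads from progesterone to androgens, rose by 1.08 (adjusted p = 1.98e-06), against 4.48 in AI, and Cyb5a, its cofactor, rose by 0.47 (adjusted p = 5.10e-04). Nr0b2, a repressor of steroidogenic genes, fell by 0.89, the cholesterol carrier gene Stard3 by 0.47 and Por, which passes electrons to microsomal enzymes, by 0.41 (adjusted p = 3.89e-05, 1.26e-04 and 9.37e-04).

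Of 11 genes in the broad list of progesterone inactivation, which also holds other reductases and dehydrogenases, 3 rose and 1 fell (36.4% called, against 13.0% of all genes). Besides Akr1c3 these were Akr1b7, an aldose reductase, at 0.69, and Srd5a3, a reductase, at 0.34 (adjusted p = 2.97e-05 and 0.0113), while Hsd11b1 fell by 0.35 (adjusted p = 0.0133). The count of falls was 0 without AI+E2 replicate 1 or 2 or VEH replicate 2, and 2 without AI+E2 replicate 3. Akr1c14, the 3α-hydroxysteroid dehydrogenase, did not pass (-0.26, adjusted p = 0.0790). Akr1c genes are close in sequence, and how far probes of 1 member read another was not tested. Akr1c1, Akr1c2 and Akr1c19 differed by -0.09, 0.02 and 0.22 (adjusted p = 0.410, 0.902 and 0.0505).

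Textbook estrogen-induced genes changed in both directions, 5 of 22 being higher and 3 lower (36.4% called, against 13.0% of all genes, median 0.0032). Besides Cited1, Rasd1, a Ras-like gene, rose by 1.03 and Igf1 by 0.53, while Vegfa fell by 0.84 and Ccnd1, cyclin D1, by 0.60 (adjusted p = 4.80e-05, 0.00117, 4.41e-07 and 4.91e-05). Pgr, the progesterone receptor, read 4.91 to 5.08 on all 6 arrays and did not pass (-0.10, adjusted p = 0.370). Of 24 measured genes of the study's supplementary tables of E2 responsive genes, 7 rose and 9 fell (66.7% called). Those tables show the genes that changed most in other comparisons of these same arrays, so the count is no independent evidence of direction. Fst, the activin binding follistatin, rose most in it, at 1.13 (adjusted p = 1.01e-05).

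Prolactin and luteinizing hormone act on luteal cells through Prlr and Lhcgr. Of 19 measured members of both pathways 6 rose and 4 fell (52.6% called, against 13.0% of all genes, median 0.06). Without AI+E2 replicate 3 the number that rose was 3. Rgs2, a brake of G protein signalling, read 6.88, 6.88 and 7.40 against 8.07, 7.89 and 8.17 and rose by 0.99 (adjusted p = 3.69e-05). Lhcgr, at 12.25 to 12.41 in VEH and 12.58 to 12.62 in AI+E2, rose by 0.25 (adjusted p = 0.00815). Among the suppressors of cytokine signalling Socs1 rose by 0.56 and Socs3 fell by 0.59 (adjusted p = 8.12e-04 and 7.42e-04). Stat5b, a transcription factor of prolactin signalling, fell by 0.46 (adjusted p = 0.00373).

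Genes of vascular growth were lower in AI+E2. The growth factor VEGF and the angiopoietins act on receptors of endothelial cells and maintain the dense capillary bed of the CL. Of 20 measured ligands and receptors 10 fell and 1 rose, with a median of -0.29, and the called falls numbered 10 of 20 against 6.91% of all genes. In AI, compared with the same VEH arrays, 11 of the 20 were lower and 0 higher (median -0.26). Vegfa read 10.66, 10.69 and 10.60 in VEH and 9.81, 9.76 and 9.86 in AI+E2. No array overlapped, and the difference was -0.84 (SE 0.0635, adjusted p = 4.41e-07), against -0.47 in AI. The difference between AI+E2 and AI was -0.37 (adjusted p = 9.66e-04).

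Receptors fell with the ligand. Flt1, a VEGF receptor, read 9.52, 9.39 and 9.34 against 8.65, 8.63 and 8.76 and fell by 0.74, and Kdr, the main VEGF receptor, fell by 0.69 (adjusted p = 4.76e-05 and 2.70e-04). Epas1, a hypoxia-inducible factor of endothelium, fell by 0.64 and Pdgfb, which recruits pericytes, by 0.49 (adjusted p = 5.88e-06 and 2.55e-04). The member that rose was Vegfd, by 0.59 (adjusted p = 0.0222), a gene named after its values were seen. The count of rises was 0 without AI+E2 replicate 1 or 3 or VEH replicate 1 or 3, and 2 without day 12 replicate 2.

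Markers of endothelial cells moved with these genes. Of 12 markers 6 fell and 0 rose (median -0.28), and their mean level was 8.45 to 8.47 on the VEH arrays and 8.11 to 8.16 on the AI+E2 arrays. In AI 9 of the 12 were lower and 0 higher (median -0.44), against 1602 of all 14509 genes lower. Flt1, Kdr, Tie1 and Tek belong to both lists. Of the other markers Esam fell by 0.46 (adjusted p = 5.20e-04), while Pecam1, Cdh5 and Cldn5, which define endothelium and were named after their values were seen, differed by -0.23, -0.19 and -0.04 without passing (adjusted p = 0.126, 0.114 and 0.852). In CL homogenate fewer cells of a type and less RNA per cell cannot be told apart. Of 11 markers of smooth muscle and pericytes 3 fell and 0 rose (27.3%, against 6.91% of all genes called lower, median -0.23). Without VEH replicate 3, 6 fell. Tagln, an actin binding protein gene, fell by 0.56 and Pdgfrb, the receptor of Pdgfb, by 0.31 (adjusted p = 0.00512 and 0.00456).

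Red blood cell genes were lower too, 3 of 6 with none that rose (median -0.35), against 6.91% of all genes called lower. Hbb-b1, a beta globin, read 9.59, 8.90 and 9.40 in VEH and 7.94, 7.78 and 7.83 in AI+E2, a 2.73-fold difference (adjusted p = 6.04e-04). Hbb read 11.27, 10.52 and 10.36 against 9.52, 9.31 and 9.34 (log2 -1.33, adjusted p = 5.33e-04). The globin genes are close copies, and their probes may share RNA, so their calls may not be separate members of this small list. The mean level of the 6 genes was 7.20 to 7.49 in VEH and 6.72 to 6.76 in AI+E2, and in AI the globins differed by -0.19 and -0.29 without passing (adjusted p = 0.649 and 0.429). The part of blood in the tissue in other differences was not tested.

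Collagens and matrix genes fell in 9 of 24 cases and rose in 3 (median -0.17). Col4a1, a collagen of basement membranes, fell by 0.68, Timp3, an inhibitor of matrix proteases, by 0.68, and Plat, the tissue plasminogen activator, by 0.57 (adjusted p = 2.14e-05, 4.28e-05 and 5.80e-06). Adamts1, a matrix protease, rose by 0.75 (adjusted p = 1.12e-04), whereas in AI it fell by 0.38 (adjusted p = 0.0159). Fibroblast markers split, with 4 of 11 higher and 4 lower (72.7% called, against 13.0% of all genes). The proteoglycan genes Lum and Dcn rose by 0.65 and 0.63, and the surface glycoprotein gene Thy1 fell by 0.67 (adjusted p = 0.00179, 5.91e-04 and 4.57e-05). The 4 rises became 2 without AI+E2 replicate 1, and the 4 falls became 1 or 2 without any single array other than VEH replicate 3. The mean level of the list was 8.34 to 8.59 in VEH and 8.44 to 8.48 in AI+E2.

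Of 16 macrophage markers 6 rose and none fell (median 0.23), against 6.11% of all genes called higher, and the count was 3 without AI+E2 replicate 1 or VEH replicate 2. In AI 4 of the 16 were higher and 0 lower (median 0.16). C1qa, a subunit of complement C1q, read 8.05, 7.99 and 8.02 in VEH and 8.79, 8.65 and 8.79 in AI+E2 (0.73, adjusted p = 1.46e-04). C1qc rose by 0.55, Adgre1, a surface receptor of macrophages, by 0.51 and Cd68 by 0.49 (adjusted p = 0.0121, 0.00101 and 4.11e-04). The mean level of the 16 markers was 7.99 to 8.08 in VEH and 8.24 to 8.32 in AI+E2. Of 13 markers of lymphocytes and neutrophils 1 rose (7.69%, near the 6.11% of all genes called higher). It was Cd4, which macrophages of the rat also express, at 0.41 (adjusted p = 0.00221). In this list 2 members were called higher without VEH replicate 1 or day 12 replicate 2. Cd3g and Cd8a did not pass (0.21 and 0.17, adjusted p = 0.0596 and 0.291). Of 10 markers of granulosa cells and oocytes 2 rose and 1 fell, with Amh, a granulosa cell hormone, at 0.54, the egg coat gene Zp2 at 0.28 and Kitlg, the ligand of the receptor KIT, at -0.29 (adjusted p = 4.25e-04, 0.0204 and 0.0455). That count was 1 for rises without AI+E2 replicate 1 or 3 or VEH replicate 2, and 0 for falls without AI+E2 replicate 1 or 2 or VEH replicate 2 or 3. Of 8 oviduct and surface markers 1 rose (12.5%, against 6.11% of all genes called higher), which was Krt19 at 0.21 (adjusted p = 0.0431). None was called without any 1 of the 6 arrays other than AI+E2 replicate 1.

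**Figure D3:**
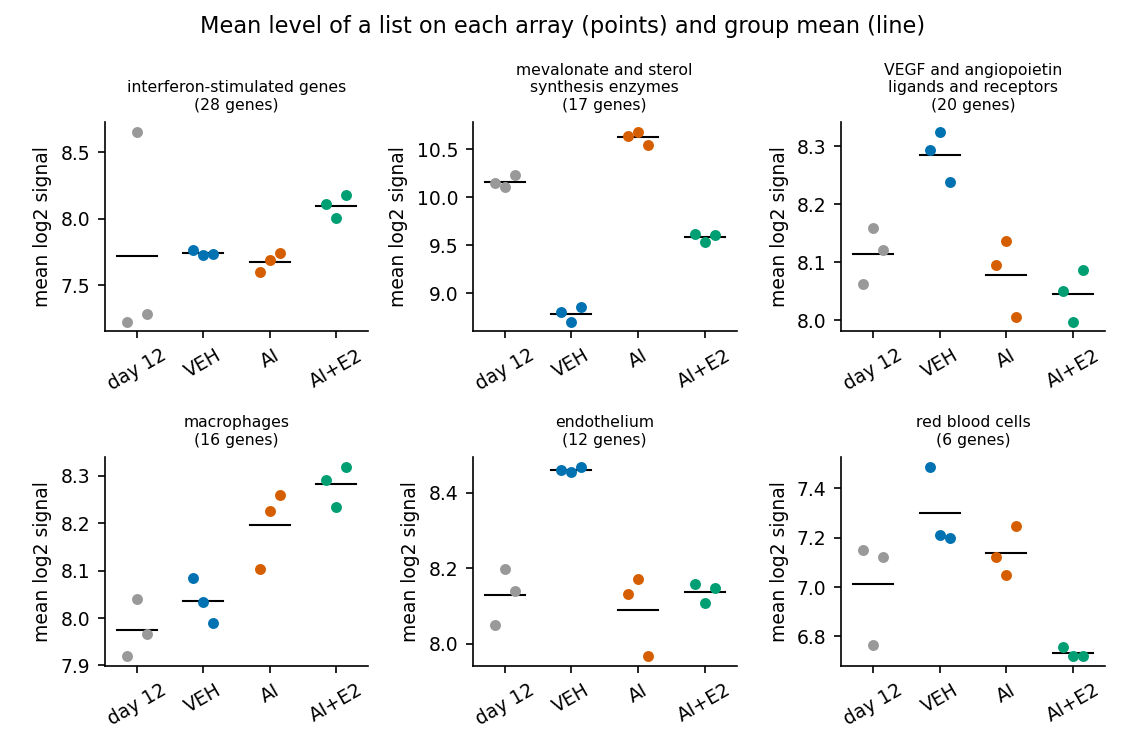
Mean log2 signal of 6 gene lists on each of the 12 arrays (points) with group means (lines). AI+E2 arrays lie above VEH arrays for sterol synthesis enzymes (9.54 to 9.62 against 8.70 to 8.86) and interferon-stimulated genes, and below them for endothelium and red blood cells. Day 12 replicate 2 stands at 8.65 in the interferon panel.

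Interferon-stimulated genes were higher on the AI+E2 arrays, but whether they passed depended on 1 day 12 array. These genes answer interferons and serve antiviral defence and antigen presentation. Of 28 measured members 25 had a higher mean in AI+E2, and in 20 of the 28 (71.4%, against 13.6% of all genes) all 3 AI+E2 arrays lay above all 3 VEH arrays. The mean level of the list was 7.76, 7.73 and 7.73 on the VEH arrays, 8.11, 8.01 and 8.18 on the AI+E2 arrays and 7.60, 7.69 and 7.75 on the AI arrays. The AI+E2 arrays were above every VEH and AI array. The median difference was 0.28.

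In the fit of all 12 arrays 1 of the 28 passed (3.57%, against 13.0% of all genes). It was Cxcl10, a chemokine induced by interferon (0.78, adjusted p = 0.0182). Leaving out any 1 of the 6 arrays gave 0 to 2 such members. The spread in that fit includes day 12 replicate 2, in which the list stood at 8.65. Without that array 17 of the 28 passed, all higher, and 17 also passed in a fit of the 6 compared arrays alone. Over all 14509 genes 2095 passed without that array (1000 higher) and 2028 in the fit of the 6 arrays (984 higher). The first alternative was added after the data had been seen.

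Usp18, a protease that removes the ubiquitin-like modifier induced by interferon, is an example chosen after its values were seen. It read 6.83, 6.83 and 7.64 in VEH and 8.32, 8.0 and 8.5 in AI+E2, while day 12 replicate 2 read 8.93 against 5.41 and 5.81 in the other day 12 arrays. Its difference of 1.17 had an SE of 0.606 over 12 arrays (adjusted p = 0.269) and of 0.184 without that array (adjusted p = 3.85e-04). It was the only gene of at least 2-fold that did not pass over 12 arrays. Oas1b, an antiviral synthetase gene, read 6.62, 6.71 and 6.67 against 7.66, 7.43 and 7.82 (0.97), with adjusted p = 0.0830 over 12 arrays and 3.95e-05 without day 12 replicate 2. Isg15, Ifit2 and Ifit3, which were named after their values were seen, differed by 0.02, -0.09 and -0.02 and did not pass in any of these fits. Cxcl9, another interferon-induced chemokine, rose by 1.00, and Tnfsf10, the death ligand TRAIL, by 1.30 (adjusted p = 0.0100 and 4.20e-04).

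Genes of several growth factor systems changed in both directions. Of 9 IGF ligands, receptors and substrates 2 rose and 1 fell (33.3%, against 13.0% of all genes). Igf1 read 9.56, 9.70 and 9.55 against 10.20, 10.09 and 10.11 (0.53, adjusted p = 0.00117), its receptor Igf1r rose by 0.25 and the adaptor Grb10 fell by 0.40 (adjusted p = 0.0265 and 8.18e-04). The count of rises was 1 without AI+E2 replicate 1, 2 or 3 or VEH replicate 1 or 2. Pappa, the protease that frees IGF from its binding proteins, read 8.03, 8.19 and 8.22 against 7.47, 7.62 and 7.56 and fell by 0.59 (adjusted p = 5.74e-05), whereas in AI it rose by 0.87 (adjusted p = 7.22e-07). Stc1, an inhibitor of that protease, rose by 0.57 (adjusted p = 0.0176) and fell by 0.85 in AI (adjusted p = 7.45e-04). Igfbp5 rose by 0.50 and Igfbp3 fell by 0.34 (adjusted p = 0.00158 and 0.00475). The study's tables list Igfbp5 as higher in AI than in VEH, and as lower in AI+E2 than in AI. The list of binding proteins, pappalysins and stanniocalcins had 2 higher and 3 lower of 10, with 1 higher without AI+E2 replicate 1 or 3 or VEH replicate 2 or 3.

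In the WNT list 2 of 24 rose and 1 fell (12.5%, near the 13.0% of all genes). Sfrp4, a secreted WNT inhibitor, rose by 1.11 and the receptor Fzd8 by 0.76, whereas Wnt4 fell by 0.54 (adjusted p = 5.19e-06, 1.21e-05 and 7.25e-04). Fzd8 fell by 0.52 in AI (adjusted p = 2.59e-04). Without day 12 replicate 2 the count of falls was 2. In the inhibin, activin and BMP family 5 of 33 rose and 3 fell (24.2% called), Bmp7 being 0.50 higher and Bmp4 0.52 lower (adjusted p = 0.00113 and 7.79e-04). Egfr, the receptor of epidermal growth factor, read 8.60, 8.80 and 8.56 against 9.30, 9.13 and 9.18 (0.55, adjusted p = 6.96e-05), and the ligand Tgfa rose by 0.29 (adjusted p = 0.0427). Of the 12 genes of that family 2 thus rose and 0 fell (16.7%, against 6.11% of all genes called higher and 13.0% called in either direction). The count of rises was 1 without any 1 of the 6 arrays other than VEH replicate 1. Of 21 genes of PI3K, Akt and mTOR signalling 3 rose and 4 fell (33.3%). Ddit4, an inhibitor of mTOR, rose by 0.91 (adjusted p = 8.92e-04), and the count of rises was 1 without AI+E2 replicate 1 or 3 or VEH replicate 1 or 3. The falls included the kinase genes Pik3cd and Pdpk1, at -0.35 and -0.31 (adjusted p = 0.0139 and 0.0144), and numbered 0, 1 and 2 without AI+E2 replicate 1, AI+E2 replicate 2 and VEH replicate 1.

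Of 17 G1 cyclins and inhibitors of the cell cycle 2 rose and 4 fell (35.3%, against 13.0% of all genes). Cdkn2c, an inhibitor of cyclin-dependent kinases, read 8.47, 8.63 and 8.82 against 6.90, 6.85 and 7.04 and fell by 1.71 (adjusted p = 5.61e-08), with -1.73 in AI. Ccnd1 fell by 0.60, while Cdkn1b, the inhibitor p27, rose by 0.58 (adjusted p = 4.91e-05 and 7.51e-05). The count of rises was 1 without AI+E2 replicate 1 or 2 or VEH replicate 1 or 2. Of 31 genes of the S, G2 and M phase 4 fell and 0 rose (12.9%, against 13.0% of all genes called and 6.91% called lower). These were Ccna2, Kif11, Kif23 and Kif20a, at -0.30, -0.26, -0.24 and -0.23 from signals of 5.80 to 6.64 in VEH. The number was 1 without AI+E2 replicate 1, 2 without AI+E2 replicate 3 or VEH replicate 2, and 0 among the brighter 50% of genes. Of 26 genes of apoptosis control 11.5% were called, near the 13.0% of all genes. Xiap, an inhibitor of caspases, rose by 0.19, and Bmf and Mcl1, of the BCL2 family, fell by 0.27 and 0.19 (adjusted p = 0.0262, 0.0193 and 0.0258). No member was called in either direction without AI+E2 replicate 1 or 3, 0 rose without VEH replicate 1 or 3, and 1 fell without VEH replicate 2 or 3.

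Of 21 immediate early genes 5 rose and 1 fell (28.6% called, against 13.0% of all genes, median 0.11). Nr4a1, an orphan nuclear receptor induced within minutes of stimulation, read 7.46, 7.20 and 7.81 against 8.52, 8.60 and 8.53 (1.06, adjusted p = 9.24e-05). Jun rose by 0.64, Ier3 by 0.56 and Junb by 0.50 (adjusted p = 4.99e-04, 7.69e-04 and 7.38e-04). The fall was that of Jund, at -0.28 (adjusted p = 0.0420), named after its values were seen, and it was not called without any 1 of the 6 arrays other than VEH replicate 3.

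Of 29 antioxidant and glutathione genes 10 rose and 2 fell (41.4% called, against 13.0% of all genes, median 0.15). Sod3, the extracellular superoxide dismutase, rose by 0.57, Prdx6, a peroxiredoxin, by 0.43 and Nfe2l2, the transcription factor of this response, by 0.37, while Mgst1 fell by 0.41 (adjusted p = 1.46e-04, 7.05e-04, 3.52e-04 and 6.95e-04). The count of falls was 1 without AI+E2 replicate 1 or 2 or VEH replicate 1 or 2, and 4 without day 12 replicate 2. In the adjusted t-test of the study's methods 1 member was called higher, and the counts of many other lists moved in that test too. Of 38 genes of the respiratory chain and ATP synthase 6 rose and 0 fell, by at most 0.33 (Uqcrc1, adjusted p = 0.00606). That is 15.8%, against 6.11% of all genes called higher and 13.0% called in either direction. In this list 2 or 3 rose without AI+E2 replicate 1 or 3 or VEH replicate 3.

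Of 25 endoplasmic reticulum chaperones and stress factors 6 rose and 2 fell (32.0% called, against 13.0% of all genes), with 2 and 14 in AI. Creld2, a chaperone gene of that response, rose by 0.51 and Pdia4, a disulfide isomerase, by 0.33 (adjusted p = 3.23e-04 and 0.00144), and both fell in AI, by 0.79 and 0.83 (adjusted p = 2.87e-06 and 1.03e-07). The rises were 3 without AI+E2 replicate 1 or VEH replicate 3, and the falls were 1 without any 1 AI+E2 array and 0 without VEH replicate 3. Of 23 genes of glycolysis and glucose transport 4 rose and 4 fell (34.8% called), with Pfkp, a phosphofructokinase, at 0.45 and Pfkfb3, which activates that step, at -0.57 (adjusted p = 0.00110 and 8.07e-04). Pfkfb3 rose by 0.47 in AI (adjusted p = 0.00268).

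Of 20 genes of prostaglandin synthesis and luteolytic receptors 3 rose and 1 fell. Akr1c3 is a member here too, Akr1b1, which makes prostaglandin F, rose by 0.55, the receptor Ptger3 by 0.43, and Slco2a1, the prostaglandin transporter, fell by 0.75 (adjusted p = 0.00250, 0.00464 and 5.07e-06). The count of falls was 2 without VEH replicate 2. Of 20 subunits of the vacuolar proton pump 10.0% were called, near the share of all genes. Atp6v0d2 rose by 1.30, against 3.94 in AI, and Atp6v0a1 fell by 0.46 (adjusted p = 5.33e-07 and 3.20e-04).

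**Figure D4:**
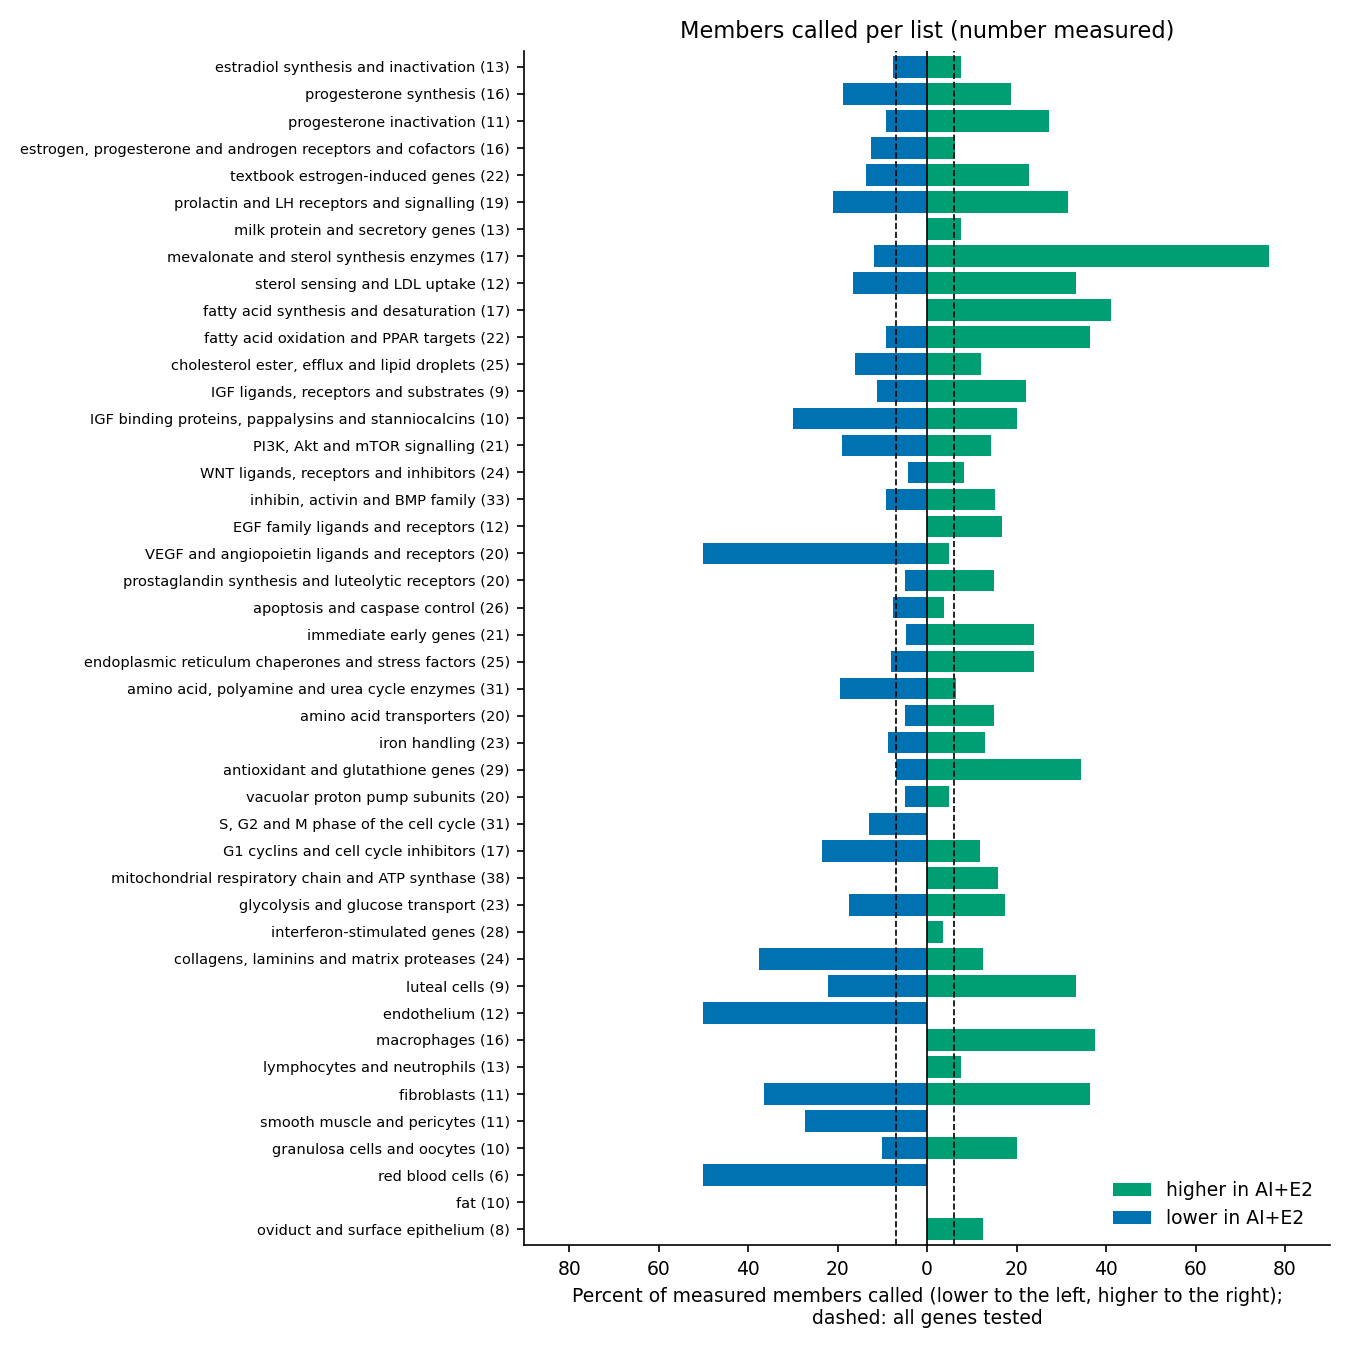
Percent of measured members called lower (left) or higher (right) in AI+E2 against VEH for each gene list other than those of the study, with the number measured in brackets and all genes as dashed lines (6.91% lower and 6.11% higher). Sterol synthesis enzymes reach farthest to the right (13 of 17), and VEGF genes, endothelium and red blood cells reach farthest to the left.

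Set beside AI against VEH, the 50 largest changes of AI+E2 fell into different kinds. The genes were chosen by their difference between AI+E2 and VEH, which favours values farther from VEH in AI+E2 than in AI. Cdkn2c, Htr2a, Kcnq1, Klhdc8a and Fdx1 had values close together in both, at -1.71 and -1.73, -1.38 and -1.29, -1.80 and -1.93, 1.25 and 1.28, and 1.24 and 1.18, and for none of the 5 was the difference between AI+E2 and AI called (adjusted p = 0.952, 0.433, 0.395, 0.884 and 0.672). Sterol enzymes, Atp6v0d2 and Gabrg3, a GABA receptor subunit, were nearer to VEH in AI+E2 than in AI, Gabrg3 at -1.35 against -2.46. Akr1c3, Ass1, Tfrc, Prkcd and Gna11 were farther from VEH in AI+E2 than in AI, Prkcd at -1.89 against -0.64 and Gna11 at -1.49 against -0.68 (difference between AI+E2 and AI called, adjusted p = 1.90e-07 and 1.05e-06). Csn1s1 was above VEH in AI+E2 and below it in AI.

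**Figure D5:**
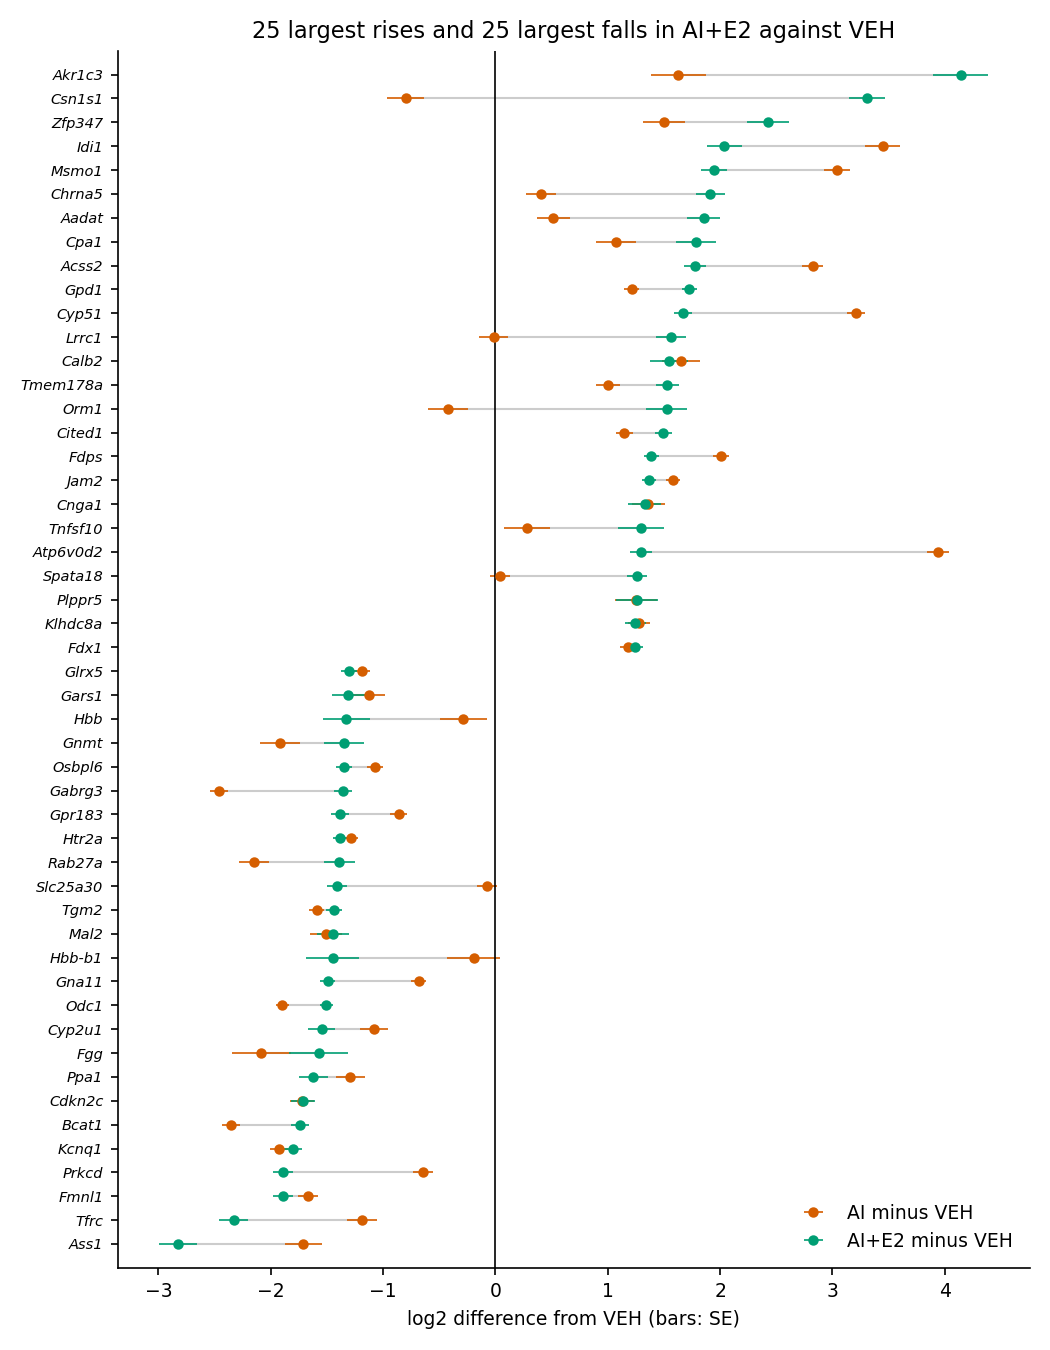
Log2 difference from VEH (horizontal axis, bars SE) in AI+E2 and in AI for the 25 largest rises and 25 largest falls of AI+E2 against VEH. Both comparisons use the same VEH arrays. The genes were chosen by their difference between AI+E2 and VEH, so the distance between paired points can be overstated too. Csn1s1 stands at 3.31 in AI+E2 and -0.80 in AI.

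At the 2-fold threshold the genes just inside were Epdr1, Cxcl9 and Tm7sf2, each 1.00 higher on the log2 scale, and Cntfr, which fell by 1.00. Those just outside were Rasa3, Rgs2, Apol9a and Miox, with -0.99, 0.99, 0.99 and -0.99. Miox, an oxygenase of inositol, fell in AI+E2 (adjusted p = 4.61e-06) and was higher by 0.31 in AI (adjusted p = 0.0349).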

How the data were processed

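Luteal RNA was hybridised to 12 Affymetrix Rat Gene 1.0 ST arrays, 3 for each of 4 groups. Per the submitters' processing notes, RMA in R 2.12.2 was used, and the authors deposited log2 values of 29214 probe sets. RMA equalises the distributions of arrays and can compress large differences. The sources used here do not say which arrays entered the same normalization. Array medians were 6.51 to 6.56, with 0 missing values and 0 identical arrays. Through the platform annotation, 15310 probe sets had 1 symbol, 323 several and 13581 none, and 3 more were named through the study's tables of E2 responsive genes. Of the identifiers 15279 were found in RefSeq. Of the 527 genes with several probe sets, the one in those tables or with the highest mean was used, which left 14509 genes.

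Groups were taken from the sample titles. A linear model with 1 mean per group was fitted to all 12 arrays (limma 3.58.1, R 4.3.3, lmFit and eBayes, with 8 residual and 6.66 prior degrees of freedom) with Benjamini-Hochberg adjustment, after the fit was tested on simulated data. Named genes were the 25 largest rises and falls called with separated arrays, the study's own lists, steroid and receptor lists, up to 4 members of each list by smallest p, and 4 genes on each side of 2-fold. Genes outside this rule are marked. The comparison, lists and rule were chosen with earlier results of these data known. Promoters were searched on both strands for exact motifs. Alternatives were the study's t-test, the samples in the fit, the replicate block, the probe set rule, dim filters, centring, quantile normalization, trend and robust eBayes, and leaving out each of the 6 compared arrays or day 12 replicate 2, the last chosen after seeing the data. Figures were drawn with matplotlib 3.10.9 in Python 3.11.15. The number of arrays limits the precision.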

Additional observations from a re-analysis of the deposited data

How the results depend on the processing

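No named gene that passed the test changed sign under any alternative run, but several runs could not have changed it. The t-test, the 6-array fit, the replicate block, the dim filters and trend and robust eBayes keep the same difference of group means. So does the fit without day 12 replicate 2. In genes with separated arrays, leaving out 1 of the 6 arrays cannot change the sign either. The number of called genes, 1888, was 566 by the adjusted t-test of the study's methods (289 higher, 277 lower) and 2970 at its unadjusted p. At 1.5-fold that adjusted test called 238 genes (122 higher, 116 lower) in place of 385. Counting all probe sets gave 615 at 1.5-fold (344 lower) and 215 at 2-fold (72 higher, 143 lower) in place of 102. Leaving out 1 of the 6 compared arrays, or day 12 replicate 2, gave 1253 to 2095 called genes (563 to 1000 higher, 690 to 1095 lower), 375 to 394 at 1.5-fold and 98 to 106 at 2-fold. The lowest count was without AI+E2 replicate 1, and the highest without day 12 replicate 2. Of 257 named genes, some of which had no call to lose, 85 lost their call by the adjusted t-test and 25 without AI+E2 replicate 1. Of the counts of list members called higher or lower, 52 moved by over 1.5 times by the adjusted t-test and 40 did not. The cause of these shifts was not tested.

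The main fit did not pair the arrays, and whether replicate numbers pair them was not settled. The deviations of same-numbered VEH and AI+E2 arrays from their group means correlated weakly, at 0.0939, 0.114 and 0.055. Of the 6 arrays, 5 correlated best with their own number. With the replicate number as a block 1678 genes were called, 382 at 1.5-fold and 102 at 2-fold. The other alternatives (6 arrays only, probe set means, dim filters, centring, quantile normalization again, trend and robust eBayes) moved none of these counts by over 1.5 times. The number of arrays and the dimness of many probe sets limit what small changes can be detected.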
